A study of Mus musculus with 12 samples.

Results

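Leukaemia cells from the spleen of LN3 mice, a mouse model of T-cell acute lymphoblastic leukaemia (T-ALL), were compared with normal spleen CD8 T cells. All samples that the labels place in these groups were taken, which gave 6 of the 12 libraries of the series, 3 in each group. The leukaemia group (LN3 spleen) was cells of mechanically dissociated spleens of overtly sick C57BL/6 mice with the genotype LN3 tg, and these cells were not enriched further. The control group (WT CD8) was spleen T cells of tumour-free wild-type C57BL/6J mice, enriched for CD8 cells by negative selection to a stated purity of 85 to 95%. The labels give no age and do not name the transgenes or the cells in which they act. The other 6 libraries, T-ALL cells of the thymus (LN3 thymus) and whole wild-type thymocytes (WT thymocytes), entered the fits and are used below only to place the spleen values. The labels do not say that each library came from a different animal, so p-values measure the spread between these libraries, which may in part be technical.

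T-ALL is a cancer of T-cell precursors in which Notch1 signalling, Myc and loss of cell cycle brakes are recurrent features. Normal thymocytes pass through a stage that rearranges the T-cell receptor genes with the Rag recombinase, then stop dividing, gain Il7r and S1pr1 and leave for the spleen as resting naive cells. The comparison therefore sets dividing cells that stem from the thymus against mostly resting mature CD8 cells, and malignancy, cell division, developmental stage and CD8 enrichment cannot be told apart by this pair of groups alone.

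Total counts were 14341613 to 35852952 in LN3 spleen and 15629090 to 42483898 in WT CD8. Xist, transcribed from the inactive X chromosome, was at 1.31 and 1.04 CPM (counts per 1e6 of the scaled library total) in library 1 of the groups and at 1420 or more in the other spleen libraries, which shows no fewer than 2 animals per group, with 1 library of little Xist in each. Genes that hold ribosomal RNA reads took 16.5, 9.99 and 8.64% of the counts in LN3 spleen against 3.21, 2.62 and 1.72% in WT CD8. Erythroid markers summed to 1930 to 6510 CPM against 41.2 to 709, with 4 of 9 called higher (1 without LN3 spleen 3, WT CD8 1 or WT CD8 3, 0 with no filter on low counts and 8 with DESeq2), and natural killer (NK) cell markers to 1.03 to 11.2 CPM against 59.5 to 416, with 7 of 7 called lower. The summed levels of myeloid (315 to 1690 against 233 to 3210 CPM), dendritic (323 to 1790 against 156 to 1690), B-cell (500 to 6970 against 579 to 3000) and platelet markers (20 to 28.7 against 16.8 to 70.2) overlapped between the groups. Without LN3 spleen 1, however, 8 of 13 B-cell markers were called lower, and without WT CD8 3, 6 of 13 myeloid markers. Immunoglobulin genes took 1.5 and 1.09% of the counts in library 1 of LN3 spleen and WT CD8 and at most 0.208% in the other libraries. The rise of log2 level with the GC content of transcripts was larger in all LN3 spleen libraries (-0.0581 to 0.426 per 10 percentage points) than in all WT CD8 libraries (-0.348 to -0.204). The part of these differences in the results below was not tested except where values are given without a library, without ribosomal RNA genes or with offsets for GC content.

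**Figure D1:**
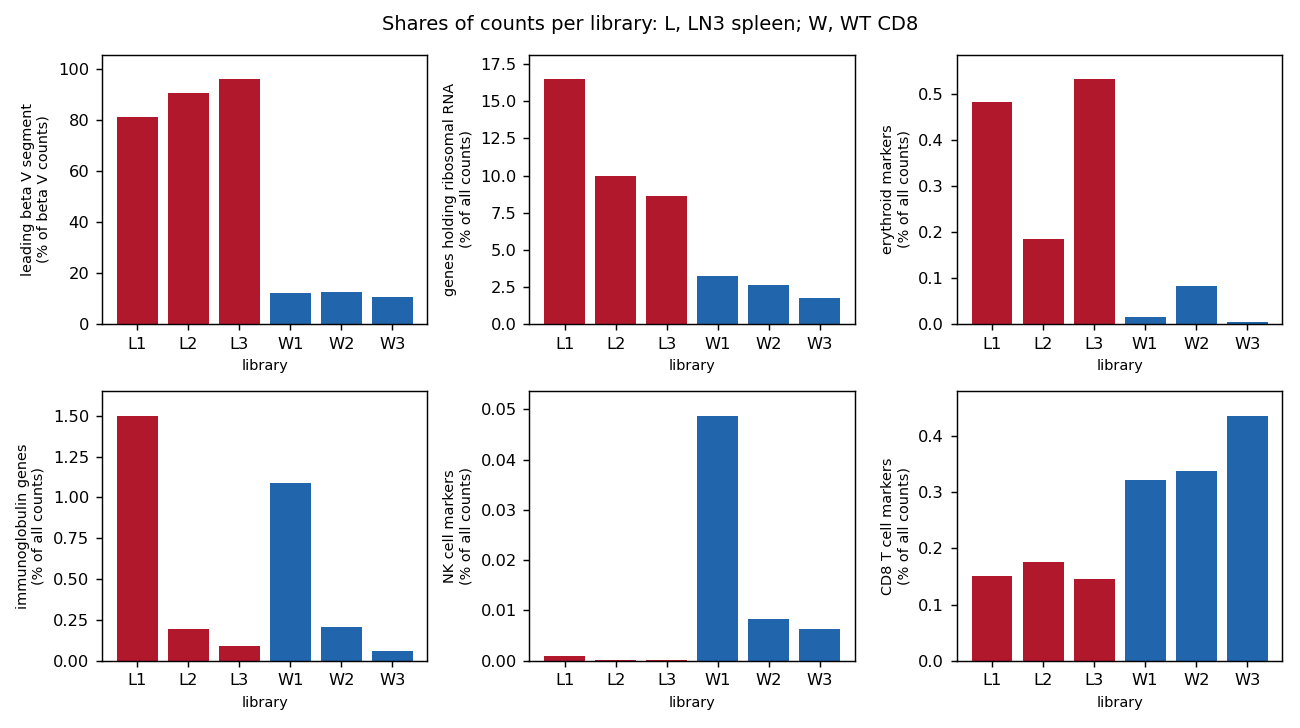
Shares of counts in percent (vertical axes) in each spleen library (horizontal axes; L1 to L3, LN3 spleen; W1 to W3, WT CD8), one bar per library. Ribosomal RNA and erythroid shares were higher in all LN3 spleen libraries than in all WT CD8 libraries, NK and CD8 marker shares were lower, and one beta V segment held 81.1 to 95.9% of beta V counts in LN3 spleen.

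The T-ALL cells differed from normal CD8 cells across a large part of the transcriptome. Of 20897 genes tested, 3740 (17.9%) were called higher and 2713 (13%) lower in LN3 spleen at an adjusted p below 0.05 (edgeR's quasi-likelihood test with Benjamini-Hochberg adjustment, from which all adjusted p-values of genes below come). A change of at least 2-fold was called for 3199 genes (15.3%) upward and 2520 (12.1%) downward. The counts of called list members below are to be read beside the 17.9% higher and 13% lower of all genes. The groups did not overlap in 12166 genes (58.2%). The first principal component of the 6 spleen libraries held 67.77% of the variance and set LN3 spleen (91.32 to 141.7) apart from WT CD8 (-118.4 to -100.4), and LN3 spleen 1 stood apart on the second component (13.62%). Higher calls made up 57.96% of all calls, but 40.02% with library totals as the scaling and 41.68% with upper quartiles, which moved the median difference of all genes by -0.401 and -0.328 on the log2 scale. Without WT CD8 1, 2416 genes were higher and 1663 lower, and without LN3 spleen 3, 1430 were lower.

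**Figure D2:**
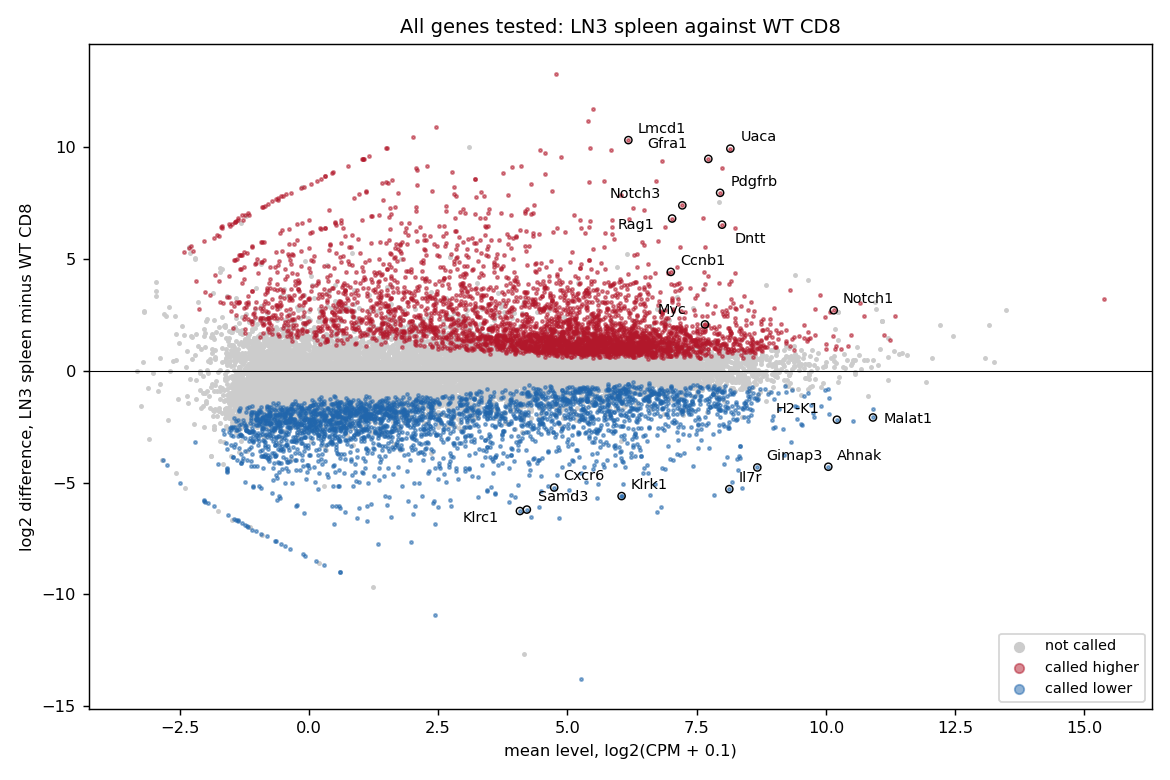
Difference of each gene tested (vertical axis, log2, LN3 spleen minus WT CD8) against its mean level in the 6 libraries (horizontal axis, log2(CPM + 0.1)), with called genes in colour and named genes circled. Calls lie on both sides at all levels, and the straight rows at the left edges are genes with few or no counts in one group.

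Notch1 and Notch3 were both far higher in the T-ALL cells. Notch1, a receptor whose cleaved intracellular part acts as a transcriptional activator in T-cell precursors, was at 1857, 2908 and 1156 CPM in LN3 spleen and at 294, 241 and 368 CPM in WT CD8. The groups did not overlap, and the difference was 6.56-fold (log2 2.71 ± 0.40, SE, adjusted p = 0.00041). Notch3, both a receptor and a target of Notch1, was at 205, 433 and 252 CPM against 3.11, 1.04 and 1.23 CPM (170-fold, log2 7.41 ± 0.53, adjusted p = 2.62e-06). Rbpj, the DNA-binding partner of cleaved Notch, rose by 0.99. Notch2 fell by 1.75 and Lfng, a glycosyltransferase that modifies Notch receptors, fell by 3.66, from 223 to 330 CPM in WT CD8 to 9.51 to 37.6 CPM. Of 16 receptors and modulators tested, 3 rose and 2 fell, near the shares over all genes (17.9% and 13%). Dll1 and Dll4 did not pass the filter on low counts.

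Among 10 tested genes known as Notch targets, 6 were higher and 1 lower, where 17.9% and 13% of all genes were called. The list's median log2 difference was 2.3, against -0.107 over all genes tested. The 6 included Notch3, counted above among the receptors as well. They also included Cd3e (0.91), a T-cell receptor complex gene that was not called in 11 of 21 other settings. Heyl, a basic helix-loop-helix repressor, was at 22.7, 20.5 and 67.4 CPM in LN3 spleen and at 0.219, 0.253 and 0.241 CPM in WT CD8. Hes1, a repressor of the same family, rose by 3.70, and Ptcra, which encodes the pre-T-cell receptor alpha chain, rose by 5.71 (24.9, 3.68 and 24.7 CPM against 0.394 CPM or less). Il2ra, the high-affinity interleukin-2 receptor chain, rose by 3.93 but was uneven, at 41.2 and 42.54 CPM in LN3 spleen 1 and 2 and at 352 CPM in LN3 spleen 3. Dtx1 (0.91) and Nrarp (0.62) did not pass the test. Gpr183, an oxysterol receptor for lymphocyte positioning, was the member that fell (-2.39).

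Myc, the growth regulator downstream of Notch1 in T-ALL, was at 322, 342 and 318 CPM in LN3 spleen and at 61.7, 85.1 and 85.2 CPM in WT CD8 (4.23-fold, log2 2.08 ± 0.30, adjusted p = 0.000368). The 3 leukaemias lay close together in this gene. Of 12 network members tested, 3 were called higher and 0 lower, where 17.9% and 13% of all genes were called. Beside Myc these were Mxd3 (3.53) and Mxi1 (0.91), repressors that compete with Myc for Max. Mxi1 was not called in 9 of 21 other settings. Igf1r, the insulin-like growth factor receptor, was at 142, 341 and 100.2 CPM against 50.3 to 64.6 CPM (log2 1.80 ± 0.39, adjusted p = 0.00447). Lmo2, a transcriptional adaptor of early progenitors, was at 40.6, 27.8 and 42.1 CPM against 15.6, 30.9 and 5.85 CPM. Its mean was 4.44 CPM in LN3 thymus and 1.91 CPM in WT thymocytes, and which cells of the spleens held it was not tested. Nup98, a nuclear pore protein, was at 159 to 175 CPM against 137 to 149 CPM. Lmo2 and Nup98 did not pass the test (adjusted p = 0.318 and 0.407). Whether a transgene's transcripts would be counted in these or other mouse genes, Notch1 and Notch3 included, is not stated in the labels.

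**Figure D3:**
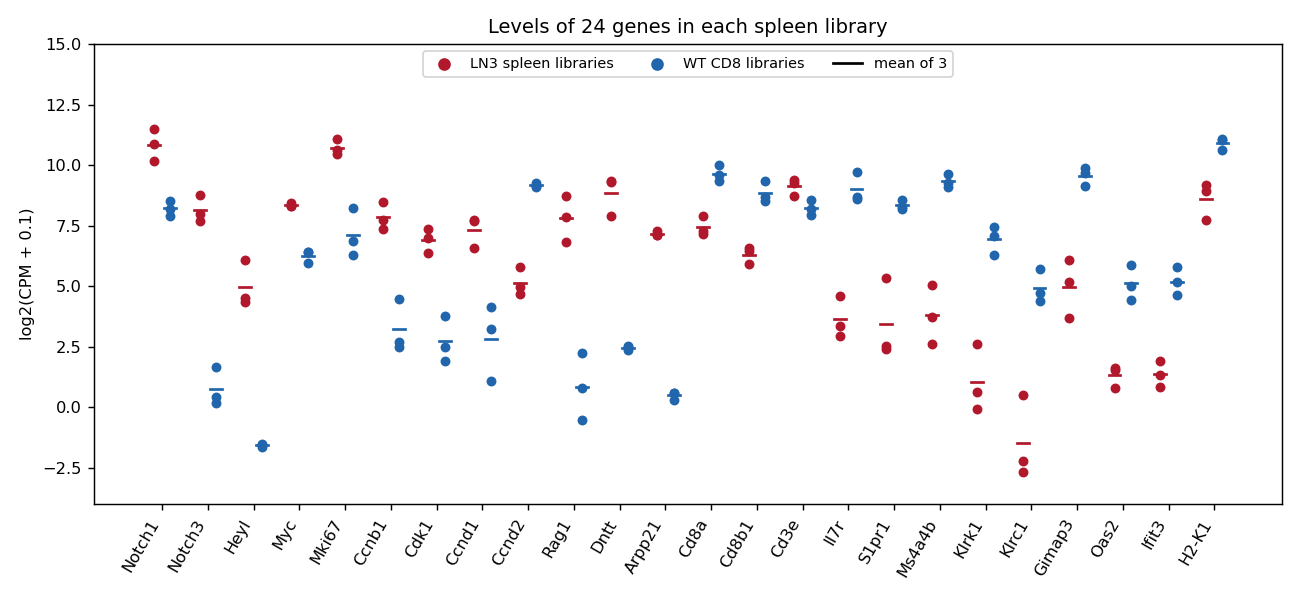
Levels of 24 genes (horizontal axis) in the 3 LN3 spleen and 3 WT CD8 libraries (vertical axis, log2(CPM + 0.1)), one point per library with the mean of 3 as a bar. In each gene shown the points of the groups do not overlap. Notch, cell cycle (except Ccnd2) and recombinase genes were higher in LN3 spleen, and Ccnd2 and homing, killer, Gimap and interferon genes were lower.

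Genes of the cell division machinery rose together. Of 26 mitosis genes tested, 26 were higher in LN3 spleen, with a median log2 difference of 3.69, and the count was 26 under each of the 21 other settings tried. Ccnb1, the cyclin that drives entry into mitosis, was at 213, 164 and 356 CPM against 6.45, 22.1 and 5.45 CPM (21.6-fold, log2 4.43 ± 0.55, adjusted p = 0.000141). Its kinase partner Cdk1 (126, 81.5 and 163 CPM against 3.66, 13.7 and 5.47 CPM) and the mitotic kinase Plk1 (168, 95.5 and 187 CPM against 6.12, 15.4 and 6.83 CPM) followed, with log2 differences of 4.02 and 3.99. Mki67, the proliferation marker, was at 1392 to 2169 CPM against 78.7 to 296 CPM. WT CD8 2 was the highest control library in all 4 of these genes. In bulk samples, more dividing cells and more of these transcripts per dividing cell cannot be told apart.

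Promoters of several mitosis genes carry a short element named CHR (cell cycle genes homology region), which is known to recruit the MuvB complexes that keep such genes silent in resting cells. The letters TTTGAA, on either strand, were found in the 250 bases before the RefSeq start of 7 of the 21 mitosis genes with a promoter in the table (33.3%), against 16.3% of 27025 mouse promoters and 12.3% of the 12773 of genes tested. The windows of 4 called genes, around their nearest match, are shown because the whole list moved together; coordinates are of GRCm38, bases run toward the gene's start, and capitals mark TTTGAA or its reverse complement.
Cdk1, chr10:69352913-69352972, minus strand: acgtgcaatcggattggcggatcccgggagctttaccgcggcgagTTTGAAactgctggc
Cdc20, chr4:118437344-118437406, minus strand: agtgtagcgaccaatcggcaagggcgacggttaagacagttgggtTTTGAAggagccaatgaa
Top2a, chr11:99024190-99024257, minus strand: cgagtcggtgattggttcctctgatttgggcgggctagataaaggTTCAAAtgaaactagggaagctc
Kif11, chr19:37376318-37376381, plus strand: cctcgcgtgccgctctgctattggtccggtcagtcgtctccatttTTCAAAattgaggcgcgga
These are the 4 genes with a match nearest the start. Cdk1 and Top2a hold the letters a second time farther out, and in Ccnb2 and Mki67 all matches lie farther from the start. Cdc20, an activator of the anaphase-promoting complex, rose by 3.87, Top2a, a topoisomerase, by 3.64 and Kif11, a spindle motor, by 3.88. A match describes the letters in a window and is not evidence of binding.

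DNA replication genes rose in 32 of 33 tested, with a median log2 difference of 2.5. Mcm10, Cdc6 and Lig1, which act in origin firing, origin licensing and joining of nascent strands, rose by 3.87, 3.47 and 3.38. Lig1 was at 361, 208 and 426 CPM against 23.2, 47.5 and 25.0 CPM. Pole2 was the member that did not pass (0.64). The element GGCGGGAA, one form of the E2F site, was found in 1 of 26 replication promoters (3.85%), in 1.91% of all promoters and in 3.11% of those of genes tested. Nucleotide synthesis genes rose in 22 of 25 (median 1.78), led by the ribonucleotide reductase subunits Rrm2 (3.64) and Rrm1 (3.35) and by Dut (3.56), and in 13 without both LN3 spleen 1 and WT CD8 1.

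The D cyclins of the G1 phase moved in opposite directions. Ccnd1 was at 95.1, 208 and 213 CPM in LN3 spleen and at 17.4, 9.24 and 2.01 CPM in WT CD8 (log2 4.18 ± 0.65, adjusted p = 0.000631). Ccnd2, another D cyclin, went the other way, from 554, 567 and 621 CPM to 55.7, 25.7 and 30.8 CPM (log2 -3.96 ± 0.39, adjusted p = 3e-05), while Ccnd3 did not pass the test (0.24). Ccne2 rose by 3.32 and the transcription factor E2f3 by 2.69, and the pocket protein Rbl2 fell by 0.85. In all, 12 of 16 G1 genes rose and 2 fell (7 rose without both LN3 spleen 1 and WT CD8 1).

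Cell cycle inhibitors moved both ways, with 4 of 15 higher and 4 lower, where 17.9% and 13% of all genes were called. Cdkn2a, which encodes the Ink4a and Arf proteins, was at 7.24, 2.49 and 7.18 CPM in LN3 spleen and had 6 counts in all in the 3 WT CD8 libraries (log2 6.34 ± 0.81, adjusted p = 0.000169). Cdkn2c (3.22) and Cdkn1c (3.73) also rose, and Cdkn2b rose by 2.38 from less than 0.33 CPM but was not called in 7 of 21 other settings. Cdkn1b, the inhibitor that holds lymphocytes at rest, fell by 1.12, from 135 to 205 CPM to 66.4 to 83.3 CPM. Of the other genes known to restrain growth, Tob1 fell by 2.38, Btg1 by 1.66 and Sesn1 by 1.19. Trp53 (0.69), Cdkn1a (1.78) and Mdm2 (-0.54) did not pass the test.

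Genes for biosynthesis and energy supply were higher by smaller amounts, beside 17.9% of all genes called higher. Ribosome biogenesis genes rose in 14 of 20 (median 1.21), among them Nolc1 (247, 167 and 381 CPM against 66.0, 79.5 and 90.3 CPM), Nop58 (1.67) and the nucleolar factor Gnl3 (1.61). Nuclear genes of the respiratory chain rose in 14 of 21 (median 1.19), with Atp5b, the ATP synthase beta subunit, at 1531, 831 and 1623 CPM against 387 to 479 CPM. Both counts leaned on single libraries: 8 ribosome biogenesis genes rose without LN3 spleen 3 or without WT CD8 1, and 4 respiratory genes without either, 9 without WT CD8 3 and 0 without both LN3 spleen 1 and WT CD8 1. In glycolysis 8 of 20 rose (5 without LN3 spleen 3 or without WT CD8 1, and 3 without both LN3 spleen 1 and WT CD8 1). Among them were Gapdh (2.40), Pfkm (1.94) and Ldha (1.69), while the glucose transporters Slc2a1 (-0.80) and Slc2a3 (-1.04) did not pass. Amino acid genes rose in 6 of 14, led by the serine synthesis enzymes Psat1 (2.68) and Phgdh (2.45) and by the glutaminase Gls2 (3.84, 2.90 and 6.04 CPM against 0.164 to 1.01 CPM). Sterol and fatty acid genes rose in 8 of 21, led by Scd2 (341, 807 and 723 CPM against 77.1 to 108 CPM), and in 3 without LN3 spleen 3 or without WT CD8 3. Over all genes, 2569 were called higher without LN3 spleen 3, 2416 without WT CD8 1 and 2618 without WT CD8 3, against 3740 with all libraries. The lowest counts of the glycolysis, respiratory and sterol lists were therefore not set apart from the calls over all genes.

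**Figure D4:**
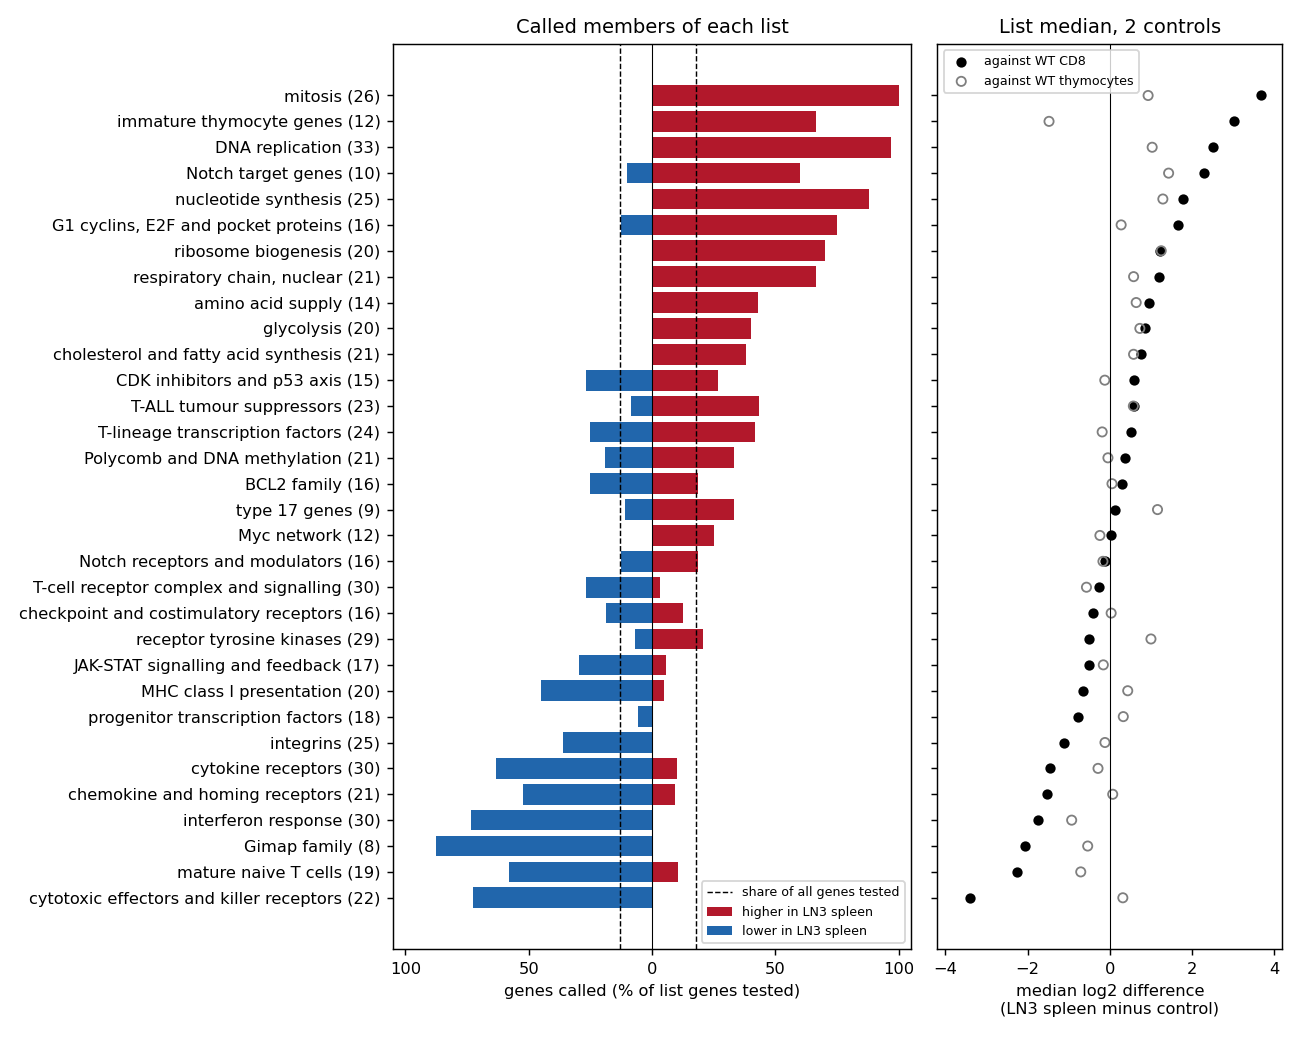
Left, share of each list's tested genes (number in brackets) called higher (right of 0) or lower (left of 0) in LN3 spleen against WT CD8, with dashed lines at 17.9% and 13%, the shares of all genes tested. Right, the median log2 difference of each list against WT CD8 (filled) and against WT thymocytes (open), which share the LN3 spleen libraries; mitosis and killer receptor lists lie at the ends against WT CD8.

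Genes of mature naive T cells were lower as a group, with 11 of 19 called lower and 2 higher (median -2.27). Il7r, the interleukin-7 receptor that keeps naive T cells alive, was at 24.4, 10.1 and 7.69 CPM in LN3 spleen and at 417, 387 and 837 CPM in WT CD8 (39.1-fold lower, log2 -5.29 ± 0.61, adjusted p = 9.54e-05). Ms4a4b, a membrane protein of resting T cells, fell by 5.25, and Dapl1 fell from 20.8 to 36.7 CPM to 1.66, 0.0579 and 0 CPM. The egress receptor S1pr1 was at 40.7, 5.68 and 5.24 CPM against 290.2 to 376 CPM, and its regulator Klf2, which fell by 2.61, was not called in 6 of 21 other settings. The survival gene Bcl2 fell by 2.27 and Ccr7, which guides cells into lymph nodes, by 2.49. The members that rose were the transcription factors Lef1 (832, 1107 and 1017 CPM against 283, 258 and 505 CPM) and Tcf7 (1.12), which precursors share with naive cells; Tcf7 was not called in 6 of 21 other settings.

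Cytotoxic and killer receptor genes were lower in 16 of 22, with a median of -3.4, beside -5.46 for the 7 NK cell markers. Klrk1, which encodes the activating receptor NKG2D, was at 6.02, 1.45 and 0.854 CPM in LN3 spleen and at 176, 78.8 and 134 CPM in WT CD8 (log2 -5.60 ± 0.77, adjusted p = 0.000285). Klrc1 and Klrc2, receptors for non-classical MHC molecules, fell by 6.27 and 6.09. The effector genes Prf1 (-4.04), Nkg7 (-4.58) and Gzmb (-3.24) and the regulators Eomes (-4.28) and Tbx21 (-3.88) also fell, while Gzma (0.76) and Ifng (-2.19) did not pass. NK markers moved with this list: Ncr1, a receptor of NK cells, was at 91.4, 15.7 and 8.12 CPM in WT CD8 and at 1.48, 0 and 0 CPM in LN3 spleen, and Klrb1c at 103, 20.7 and 19.0 CPM against 3.75, 0.434 and 0.171 CPM. Both were highest in WT CD8 1, and without that library 13 of the cytotoxic genes were lower, 1 was higher and 3 NK markers were lower. How much of the list's level in the controls came from NK cells was not tested.

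The Gimap genes, a cluster of lymphocyte GTPases tied to survival of resting T cells, fell in 7 of 8 tested (median -2.06). Gimap3 was at 68.3, 35.8 and 12.8 CPM against 823, 557 and 953 CPM (20-fold lower, log2 -4.32 ± 0.64, adjusted p = 0.000445). Gimap8 and Gimap4 fell by 2.80 and 2.28, and Gimap9 (0.49) did not pass the test. Across the settings tried, 6 or 7 of the 8 were lower.

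Interferon response genes were lower in 22 of 30 (median -1.75). Oas2, which senses double-stranded RNA, was at 2.97, 2.81 and 1.65 CPM in LN3 spleen and at 21.3, 59.4 and 32.5 CPM in WT CD8 (log2 -3.93 ± 0.47, adjusted p = 0.000111). Ifit3, which binds viral RNA caps with its partners, was at 3.66, 1.71 and 2.45 CPM against 24.5, 54.7 and 35.8 CPM, and Ifi27l2a fell by 3.98. WT CD8 2 was the highest library in each of these 3 genes. The transducers Stat2 (-1.21), Irf7 (-2.68) and Irf9 (-1.50) also fell, and the receptor chains Ifnar1 (-1.42) and Ifnar2 (-0.92) with them. Isg15 (-1.16), Bst2 (-0.58) and Rsad2 (1.32) did not pass. Without LN3 spleen 1 or without WT CD8 2, 1 member was called higher.

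The interferon-stimulated response element, bound by a complex that holds Stat2 and Irf9, was searched as GAAA, any 2 bases and GAAA again, on both strands of the same 250-base windows. It was found in 10 of the 21 interferon genes with a promoter in the table (47.6%) and in 3.05% of all 27025 promoters. The list is of genes known to respond to interferon, so this share follows from their choice. Windows of 4 genes that fell are shown so that the element can be read beside their values, with capitals for the element or its reverse complement.
Ifit3, chr19:34583362-34583431, plus strand: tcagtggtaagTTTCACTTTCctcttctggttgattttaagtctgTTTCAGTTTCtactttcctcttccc
Ifit1, chr19:34640759-34640828, plus strand: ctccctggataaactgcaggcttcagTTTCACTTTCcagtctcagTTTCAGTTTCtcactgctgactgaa
Oas3, chr5:120777710-120777779, minus strand: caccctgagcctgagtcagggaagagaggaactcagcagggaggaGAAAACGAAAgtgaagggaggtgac
Gbp2, chr3:142620559-142620628, plus strand: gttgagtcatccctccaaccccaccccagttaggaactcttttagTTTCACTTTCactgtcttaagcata
Ifit3 and Ifit1 hold the element at 2 places each. Log2 differences were -3.90 and -3.20 in these genes, -2.20 in Oas3 and -1.49 in Gbp2. Isg15 and Bst2, which did not pass the test, also hold more than 1 match, but in a single stretch where the matches overlap. Whether the number of elements goes with the size of the differences was not tested.

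MHC class I genes, which present peptides to CD8 cells, were lower in 9 of 20 and higher in 1 (median -0.64). The classical heavy chain H2-K1 was at 583, 490 and 211 CPM against 2160, 1589 and 2087 CPM (log2 -2.19 ± 0.53, adjusted p = 0.00848). H2-D1 fell by 2.06, the light chain B2m by 1.12 and the transactivator Nlrc5 by 2.48. H2-Q7 (-3.17) and H2-Q6 (-2.83) are near-identical copies whose counts may be shared, so each value is uncertain. Tap1 (-0.97) and the immunoproteasome subunits Psmb8 (0.25) and Psmb9 (-0.27) did not pass. The chaperone Pdia3 was the member that rose (0.95), and it was not called in 7 of 21 other settings.

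Genes of the T-cell receptor complex were expressed in all 6 libraries, while the CD8 co-receptor genes were lower in the leukaemias. Cd8a was at 235, 143 and 154 CPM against 645, 766 and 1035 CPM (log2 -2.20 ± 0.41, adjusted p = 0.00192), and Cd8b1 fell by 2.57. Cd4 was at 14.0, 20.7 and 6.95 CPM against 37.8, 17.8 and 5.08 CPM, with overlapping groups (adjusted p = 0.585). Cd3e was at 672, 613 and 423 CPM against 289, 244 and 375 CPM (log2 0.91 ± 0.32, adjusted p = 0.0473), a call that was lost in 11 of 21 other settings. Of 30 receptor and signalling genes, 8 fell and 1 rose (13% and 17.9% over all genes), and 14 fell with upper-quartile scaling. The kinase Txk, of the Tec family, fell most (18.8, 22.4 and 15.4 CPM against 167, 137 and 198 CPM), while Lck (0.58), Zap70 (0.28) and Lat (0.73) did not pass. Trdc, the delta chain constant segment, was at 5.58, 0.319 and 0.683 CPM against 45.8, 21.6 and 15.9 CPM.

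Genes of immature thymocytes were higher in 8 of 12 (median 3.01). Rag1, a subunit of the recombinase that joins receptor gene segments, was at 235, 113 and 427 CPM in LN3 spleen and at 1.64, 4.62 and 0.591 CPM in WT CD8 (113-fold, log2 6.82 ± 0.87, adjusted p = 0.000166). Dntt, which adds bases at the joins, was at 629, 645 and 237 CPM against 4.99 to 5.66 CPM. Arpp21, a gene of double-positive thymocytes, was even across the leukaemias, at 139, 139 and 156 CPM against 1.12 to 1.42 CPM. Against WT thymocytes the same libraries were lower by 4.24 for Rag1, 1.60 for Arpp21 and 1.37 for Dntt, and 8 of the 12 genes were called lower there (8.52% of all genes were), with a list median of -1.48. Levels in LN3 spleen lay above those in WT CD8 and below those in WT thymocytes for these 3 genes.

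Among transcription factors of the T lineage, 10 of 24 rose and 6 fell, where 17.9% and 13% of all genes were called. The number that rose was 6 without WT CD8 1 or without WT CD8 2, and 5 without both LN3 spleen 1 and WT CD8 1. Myb was at 374, 599 and 545 CPM against 83.9 to 109 CPM, Gata3 rose by 1.91 and Runx1 by 1.77. Runx3, the factor that sets CD8 identity, fell by 2.51, and Bach2, a repressor of effector differentiation, fell from 127 to 186 CPM to 23.5, 12.2 and 4.44 CPM. Bcl11b (-0.11) and Ets1 (-0.27) did not pass. Progenitor factors, whose ectopic activity marks several T-ALL subtypes, had 1 call among 18 tested, Meis1, which was lower (-1.77, not called in 8 of 21 other settings). That share was below the 13% of all genes called lower. Tal1 was at 44.5, 13.7 and 64.6 CPM against 4.92, 26.4 and 3.90 CPM and Lyl1 at 29.3, 6.83 and 13.7 CPM against 14.3, 28.8 and 4.53 CPM, so that the groups overlapped in both genes. Hoxa9 and Hoxa10 did not pass the filter.

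Of 23 genes known as T-ALL tumour suppressors, 10 rose and 2 fell, where 17.9% and 13% of all genes were called. The number that rose was 3 without both LN3 spleen 1 and WT CD8 1 and 4 with library totals as the scaling. It was 6 without LN3 spleen 2, WT CD8 2 or WT CD8 3. Over all genes, 1916 and 2524 rose in the first 2 of these settings, so the low counts lay near the calls over all genes. Those that rose include Cdkn2a and Ezh2 (227, 201 and 335 CPM against 29.2 to 53.1 CPM), the catalytic subunit of Polycomb complex 2, and those that fell were Cdkn1b and Dnm2 (-0.86, not called in 7 of 21 other settings). Among 21 Polycomb and DNA methylation genes, 7 rose and 4 fell (17.9% and 13% over all genes). The maintenance factors Uhrf1 (3.91), Hells (2.93) and Dnmt1 (2.09) were higher, and the demethylase Tet2 (-2.56) and Cbx7 (-1.59) were lower.

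The BCL2 family, which sets the threshold for apoptosis, had 3 members higher and 4 lower of 16, where 17.9% and 13% of all genes were called. Bcl2 itself was at 40.9, 49.0 and 43.7 CPM against 192, 194 and 258 CPM (log2 -2.27 ± 0.28, adjusted p = 0.000119). Mcl1 fell by 0.95, and the death-promoting Bcl2l11 by 0.91. Bcl2l2, a survival member, rose by 2.05, and Bmf and Bid, of the death-promoting branch, rose by 2.23 and 1.02. Bcl2l1 (0.94) did not pass. The number lower was 2 without LN3 spleen 2, LN3 spleen 3, WT CD8 1 or WT CD8 3.

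Cytokine receptors were mostly lower, with 19 of 30 called lower and 3 higher (median -1.46). Beside Il7r, Il18r1 fell by 5.06 and Il6ra by 3.92, and the interleukin-2 and interleukin-4 receptor chains Il2rb and Il4ra fell by 2.16 and 2.88. Il9r, a receptor of the common gamma chain group, rose from 2.39 to 6.87 CPM to 67.5, 82.1 and 86.6 CPM (log2 4.19 ± 0.38, adjusted p = 1.45e-05), and Il12rb1 rose by 1.52. Of 17 JAK-STAT genes 5 fell, among them Stat4 (-3.83), and Stat5a rose by 1.14, where 13% of all genes fell and 17.9% rose. With library totals as the scaling 10 fell, and with upper quartiles 8.

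Receptors for migration were lower in 11 of 21 and higher in 2 (median -1.53), where 13% and 17.9% of all genes were called. Cxcr6, a receptor of tissue-resident and effector T cells, was at 1.22, 1.71 and 1.20 CPM against 51.6, 43.8 and 60.8 CPM (log2 -5.22 ± 0.31, adjusted p = 7.28e-07). S1pr5 fell by 4.01 and Cxcr3 by 3.29. The pair that rose was Ccr4, at 55.4, 70.4 and 91.5 CPM against 3.99, 2.69 and 2.28 CPM, and Ccr8 (3.15). Cxcr4 (0.66) and Ccr9 (0.45) did not pass. Integrins fell in 9 of 25, among them Itgae (-4.23), Itga2 (-4.22), an NK-cell integrin, and Itgb7, from 434 to 572 CPM to 69.2, 25.1 and 11.2 CPM. Without WT CD8 1, 4 integrins fell, near the 13% of all genes called lower with all libraries, and 1663 genes fell in all.

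Of 29 receptor tyrosine kinases and adaptors 6 were higher and 2 lower, a share higher near the 17.9% of all genes, and the list median was -0.51. Single members differed widely. Pdgfrb, a platelet-derived growth factor receptor of mesenchymal cells, was at 302, 489 and 690 CPM in LN3 spleen and at 1.53, 2.78 and 1.55 CPM in WT CD8 (251-fold, log2 7.97 ± 0.47, adjusted p = 7.28e-07). Ephb2, an ephrin receptor, rose by 4.58 and Irs1, an adaptor of the insulin receptors, by 7.43 (13.2, 90.7 and 17.1 CPM against 0.307 CPM or less). Stroma markers as a list had 1 of 6 tested members higher, the collagen gene Col1a2, at 1.22, 249 and 143 CPM against 0.506 to 0.613 CPM, while the endothelial marker Pecam1 was at 104.9 to 117 CPM against 130 to 135 CPM. LN3 spleen 1, with almost no Col1a2, also had the least Pdgfrb of the LN3 spleen libraries, at 302 CPM. Which cells of the spleens held Pdgfrb was not tested.

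Checkpoint receptors had 2 members higher and 3 lower of 16, near the shares over all genes (17.9% and 13%). Pdcd1, which encodes PD-1, was at 28.7, 29.0 and 23.7 CPM against 3.07 to 4.65 CPM, and Tox rose by 1.55, while Cd226 (-4.19) and Vsir (-2.64) fell; Ctla4 (1.49), Lag3 (0.28) and Tigit (-0.19) did not pass. Of 9 type 17 genes 3 rose, among them the near-identical Il22 and Iltifb. The WT CD8 libraries had no count of either interleukin gene. Levels in LN3 spleen, 1.13, 1.25 and 14.0 CPM for Il22 and 1.83, 2.49 and 19.4 CPM for Iltifb, exceeded the floor of 3 counts per library. Set against that floor, the mean of the 3 libraries was at least 50.3-fold higher for Il22 and at least 73-fold higher for Iltifb. LN3 spleen 3 drove both means, so the bounds are lower for LN3 spleen 1 and 2. The transcription factor Ahr fell by 2.23, a call lost in 7 of 21 other settings.

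The largest rises were in genes with almost no counts in WT CD8. Uaca, a regulator of apoptosis, was at 392, 627 and 686 CPM in LN3 spleen and at 0.219, 0.506 and 0.876 CPM in WT CD8 (log2 9.95 ± 0.57, adjusted p = 7.28e-07). Gfra1, a co-receptor for glial cell line-derived neurotrophic factor, was at 282, 397 and 589 CPM against 0.759 CPM or less. Lmcd1 was even, at 136, 144 and 154 CPM against 0.219 CPM or less. The others were Sall3, Rgma, Inava, Aif1l, Acan, Fam163b and Lgals7, with log2 differences of 8.83 to 9.98, the histone gene Hist1h2ah, at least 99.4-fold higher, and Vgll1. In Vgll1 the leukaemias differed, at 137, 108 and 6.44 CPM, and WT CD8 had 3 counts in all (ratio 2710, counting interval 928 to 13200).

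The largest falls included several killer cell genes. Samd3 was at 1.05, 0.405 and 0.114 CPM against 49.2, 28.7 and 31.5 CPM (log2 -6.21 ± 0.81, adjusted p = 0.000205). Nmnat2 (-6.07), H60b (-6.04), Ifngas1 (-5.77), an RNA beside the interferon-gamma gene, and Tdrp (-5.70) followed, beside Klrc1, Klrc2, Dapl1 and Ncr1. Klra9 (-5.83) and Klra13-ps (-6.60) belong to the Ly49 family of close copies and are uncertain. The pseudogene Rpl15-ps3 had no count in LN3 spleen and 47.6, 120.2 and 62.5 CPM in WT CD8, at least 443-fold lower, and it too is uncertain, since its reads can be shared with copies (adjusted p = 0.0279, not called in 8 of 21 other settings). Among genes with most counts, Ptma (3499, 1999 and 3135 CPM against 486 to 557 CPM), Hsp90ab1 (1.59) and Tubb5 (1.63) rose, as did the mitochondrial ribosomal RNAs mt-Rnr1 (3.03) and mt-Rnr2 (2.47) and mt-Nd1 (1.36, not called in 4 of 21 other settings). Ahnak, a large scaffold protein of mature lymphocytes, was at 179, 93.4 and 37.1 CPM against 2260, 2223 and 1553 CPM (log2 -4.29 ± 0.59, adjusted p = 0.000276), and Malat1, Macf1, Myh9 and Flna, the last 2 of the cytoskeleton, fell by 1.69 to 2.25.

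The 3 leukaemias differed from one another most in a few genes. Arfgef3 was at 42.4 and 122 CPM in LN3 spleen 1 and 2 and at 0.171 CPM in LN3 spleen 3, below the controls. Arsi was at 7.06, 152.5 and 93.7 CPM and Ptpn13, a phosphatase, at 6.54, 79.3 and 163 CPM, both lowest in LN3 spleen 1, as was Col1a2. The granule genes Ltf (346, 34.5 and 28.0 CPM), Mpo (189, 28.2 and 10.9 CPM) and Camp and the B-lineage genes Jchain (1113, 97.6 and 44.8 CPM) and Cd79a were instead highest in LN3 spleen 1, and none of these 5 was called between the groups. They are markers of other blood cells, and WT CD8 2 (granule genes) or WT CD8 1 (Jchain, 746 CPM) also held them.

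One beta chain segment dominated in each leukaemia. Trbv5 took 81.1% (exact 95% interval 79.5 to 82.6), 90.3% (89.6 to 91) and 95.9% (95.3 to 96.5) of beta V counts in LN3 spleen 1 to 3. The leading segment of the 3 WT CD8 libraries, Trbv16, took 12, 12.4 and 10.5%, and Trbv5 took 1.94 to 2.52% there. Over 3 against 3 libraries an exact permutation test cannot go below p = 0.1, the value found for the leading share (two-sided, 0.213 adjusted over 17 shares). Alpha chain counts were less uneven, with Trav7-2 at 7.77% in LN3 spleen 1, Trav7d-5 and its close copy Trav7n-5 at 34.1% each in LN3 spleen 2 and Trav5-4 at 19.2% in LN3 spleen 3, against 3.25 to 3.9% for the leading segments of WT CD8. V segments are close copies, so single segments are uncertain, and the intervals cover counting error only.

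Normal thymus also holds dividing cells, so values of the same LN3 spleen libraries against WT thymocytes are set beside those against WT CD8. The median of the mitosis list was 0.93 with 1 of 26 genes called higher, against 3.69 with 26 called in the comparison with WT CD8, and 11.3% of all genes were called higher against WT thymocytes. For DNA replication the median was 1.03 with 14 of 33 called higher. Ccnb1 differed by 1.40 (adjusted p = 0.0595) and Cdk1 by 1.04 (adjusted p = 0.11) from WT thymocytes. Myc (2.31), Heyl (5.83), Ccnd1 (4.87), Pdgfrb (6.26), Uaca (5.98) and Gfra1 (3.98) were called higher against WT thymocytes as well, as was Notch1 (2.12), and Cd8a (-3.38) and Ccnd2 (-2.49) were called lower. Notch3, with a mean of 119 CPM in WT thymocytes, was called higher by 1.32 there, against 7.41 in the comparison with WT CD8. Other genes that rose against WT CD8 did not pass against WT thymocytes: Ptcra (-0.63), Il2ra (1.53), Ccr4 (0.28), Pdcd1 (0.19), Tox (-0.11) and Acan (1.88). The LN3 spleen minus WT CD8 difference was more positive than the LN3 thymus minus WT thymocytes difference in 688 genes (3.29% of those tested) and more negative in 187 (0.895%), by the interaction of tissue and genotype. Against WT thymocytes the cytotoxic list had a median of 0.32 and the Gimap list of -0.54.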

How the data were processed

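The authors deposited a table of estimated counts per gene for the 12 libraries (4 groups of 3); per the submitters' processing notes it was made with kallisto 0.46.1, which assigns read pairs to transcripts, on GRCm38. The annotation release and whether the strand was used stay unknown, being not given in the sources used here. The deposited counts were whole numbers and were used as they are (rounded). A second deposited table, of variance-stabilized values on a log2 scale, was used in 1 alternative.

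Of 54351 genes, 16997 had no count and 20897 passed edgeR's filterByExpr. Counts were scaled by TMM and fitted with edgeR 4.0.16 (R 4.3.3), with robust estimation and a mean for each of the 4 groups; the 12 libraries leave 8 residual degrees of freedom, and contrasts were tested by quasi-likelihood. Genes were called at a Benjamini-Hochberg adjusted p below 0.05. CPM are counts per 1e6 of the TMM-scaled total, and log2 values are differences of fitted group means. Each SE was derived as the absolute log2 difference divided by the square root of its quasi-likelihood F statistic. A count of 3 per library, the floor for genes without counts, was 0.0657 to 0.262 CPM in the spleen libraries. Bounds for such genes set the mean of the higher group against the mean floor of the other group. Intervals are exact Clopper-Pearson at 95%. Shares were compared with exact permutation tests (scipy 1.17.1). Near-identical genes share reads by estimation and are less certain. On simulated counts with 20897 genes, this comparison recovered 3 of 67 genes changed by log2 1, 40 of 67 by 2 and 51 of 66 by 3, with 5 false among 99 calls. Far fewer genes changed there than the 6453 called in the data. The adjusted threshold was therefore stricter in the simulation, and its recovery does not measure that in the data.

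The lists, the rule for named genes and the members of the comparison were chosen with earlier results of these data known. The rule took 10 genes of general interest (Notch1, Notch3, Myc, Igf1r, Cd8a, Cd8b1, Cd4, Mki67, Lmo2 and Nup98), up to 3 called members per direction of each list, the 12 largest rises and falls among called genes of at least 10 CPM, the 6 per direction with most counts, the 10 with the widest range among LN3 spleen libraries, the 6 largest interactions and 2 markers per list of other cells; other list members are named by role. Receptor segments, unnamed models and sex-linked genes were left out of picks over all genes, and a few genes that the rule took are not reported here. Promoter sequences and motif windows are from RefSeq (GRCm38.p6). For 18 of the 23 promoters with a motif, bases after the start were found in a transcript of the gene. Alternatives were other scalings and filters, DESeq2 1.42.0, limma 3.58.1, a replicate block, libraries left out, and, chosen after seeing the data, GC offsets and exclusion of ribosomal RNA genes or of further libraries.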

Additional observations from a re-analysis of the deposited data

Results flagged for a closer look

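The difference between LN3 and normal cells was itself compared between spleen and thymus, as the LN3 spleen minus WT CD8 difference less the LN3 thymus minus WT thymocytes difference. This interaction was called for 875 genes (4.19% of those tested), 688 above 0 and 187 below, and values of named genes follow. The 2 controls are different cell types, so organ and control cell type cannot be told apart in these values, which are interaction log2 differences with adjusted p below 0.05 in edgeR's quasi-likelihood test.

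The list of immature thymocyte genes had 6 of 12 members called in the interaction, and its members above 0 included Rag1 10.07, Arpp21 8.06, Dntt 7.46 and Ptcra 5.51. Cd4 (4.18), Myb (2.41) and Tox (1.95) were also above 0. In Rag1 the difference was 6.82 in the spleen and was of the other sign in the thymus. Cell cycle genes were also above 0: Ccnb1 3.85, Cdk1 3.66, Plk1 3.57, Rrm2 3.82, Rrm1 2.84, Mcm10 2.95, Lig1 2.71, E2f3 1.52, Mxd3 3.88, Uhrf1 3.86 and Ezh2 2.60, and so were the inhibitors Cdkn1c (4.33) and Cdkn2c (3.61). The mitosis list had 21 of 26 members called in the interaction and the DNA replication list 13 of 33.

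Receptors above 0 were Notch3 5.37, Gfra1 5.54, Ccr8 5.09, Ccr4 4.40, Pdcd1 2.83 and Ephb2 2.65. Other genes above 0 included Hist1h2ah 9.54, Acan 8.70, Camkv 7.88, Endou 7.77, Uaca 3.998, Inava 3.97, Bmf 2.71 and Scd2 2.30. Camkv had 3 counts in all in WT CD8, and Hist1h2ah had none, so their fitted values depend on the prior count.

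Named genes below 0 included Itga2 -4.59, Ifngas1 -4.32, Nmnat2 -4.01, Ahnak -3.09, Il18r1 -3.07, Cd226 -2.87, Gimap4 -2.73, H2-Q7 -2.59, Oas2 -2.48, Cxcr6 -2.46 and Txk -1.58. Of the lists that fell in the spleen, the cytotoxic list had 6 of 22 members called in the interaction, the mature naive list 3 of 19, the MHC class I list 2 of 20 and the interferon list 1 of 30.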

How the results depend on the processing

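Of 171 named genes called, DESeq2, its size factors in edgeR and a fit of the 6 spleen libraries lost 0, GC offsets 1 (Meis1), exclusion of ribosomal RNA genes 1 (Cd3e), and leaving out single libraries 8 to 18. Of genes named above, Cd3e, Tcf7, Cdkn2b, Dnm2, Mxi1, Rbl2, Malat1 and Rpl15-ps3 were not called without LN3 spleen 1, and Cd3e, Klf2, Meis1, Cdkn2b, Dnm2, Ahr and Rpl15-ps3 without LN3 spleen 2. Without LN3 spleen 3 these were Tcf7, Klf2, Meis1, Dnm2, Mxi1, Rbl2, Malat1, Rpl15-ps3, Ahr, Bid, Pdia3, Klra9, mt-Nd1 and Ptpn13. Without WT CD8 1 they were Cd3e, Tcf7, Klf2, Meis1, Dnm2, Mxi1, Rbl2, Rpl15-ps3, Ahr, Bid, Pdia3, Ncr1 and mt-Nd1, without WT CD8 2 Cd3e, Tcf7, Meis1, Cdkn2b, Mxi1, Ahr, Rpl15-ps3 and mt-Nd1, and without WT CD8 3 Cd3e, Klf2, Cdkn2b, Dnm2, Mxi1, Bid, Pdia3 and Rpl15-ps3. Leaving out LN3 spleen 1 and WT CD8 1, the libraries with most immunoglobulin and little Xist, lost 25 and left 1916 genes higher and 1310 lower. With 1 library left out, 2416 (without WT CD8 1) to 3583 genes were higher, 1430 (without LN3 spleen 3) to 2170 lower (1663 without WT CD8 1), and 463 (without WT CD8 1) to 724 called in the interaction (537 without WT CD8 3). Interaction calls numbered 875 in the fit as reported, 1759 with DESeq2, 1320 with GC offsets, and 338 without LN3 spleen 1 and WT CD8 1. Shares kept their direction in the settings run for them. Without WT thymocytes 3, 4749 genes were higher, 3833 lower and 880 called in the interaction. Cd79a, not called (0.22, and 0.74 without LN3 spleen 2), turned to -1.86 without LN3 spleen 1 (adjusted p = 0.0319) and to -1.81 without the 3 libraries whose levels rose most with GC content (adjusted p = 0.0465).

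Replicate numbers are shared by the groups, but same-numbered LN3 spleen and WT CD8 libraries correlated at 0.336, -0.197 and 0.142 in their deviations from the group means, so the numbers were not taken as pairs. With the replicate block 3150 genes were higher and 2216 lower (12 libraries, 532 interaction calls), or 3685 and 3038 (6 libraries, against 4323 and 3989 without the block). The cause of these shifts was not tested. The limits are 3 libraries a group, a common coefficient of variation of 0.4411 and a floor of 3 counts for genes absent from a group. Changes near 2-fold were seldom recovered in simulated counts. Those held far fewer changed genes than the 6453 called here, so recovery of such changes in the data was not measured.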

Other observations

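Alpha V counts gave a value across organs that belongs to no comparison above. Trav7d-5 and Trav7n-5 led in LN3 spleen 2 (34.1% each) and also in LN3 thymus 3 (33.7% each), libraries that carry different numbers, and the deviations of these libraries from their group means correlated at 0.429. LN3 spleen 1 correlated at 0.464 with LN3 thymus 2, and same-numbered LN3 spleen and thymus libraries at -0.15, -0.528 and -0.0412. Trbv5 led in the 3 LN3 thymus libraries as well, with 65.6, 78.7 and 88.5% of beta V counts. The labels do not say which spleen and thymus libraries share an animal.

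Dissociation stress genes, which respond to tissue handling, were higher in 3 and lower in 6 of 21 (17.9% and 13% over all genes). Without WT CD8 1 or WT CD8 3, 0 were higher, and without LN3 spleen 2, LN3 spleen 3 or WT CD8 1, 2 were lower. Their summed levels were 2100 to 3760 CPM in LN3 spleen and 2270 to 2630 CPM in WT CD8. The 13 mitochondrially encoded protein genes took 2.52 to 2.82% of counts against 2.18 to 2.55% (exact permutation p = 0.2).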
